A study of Mus musculus with 20 samples.

Results

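The genes described here were the enzymes and transporters of glycolysis, of the pentose phosphate pathway and of the fate of pyruvate, 33 genes listed by symbol for their textbook role. All 33 were in the count table of mesenteric lymph nodes (mLNs), which holds 16784 genes, and 32 were in that of pooled spleen and peripheral lymph nodes (pLNs), which holds 16740. *Pkm* was listed in the latter under its older symbol *Pkm2*, and its values there are given under that name outside the 32. Every gene reported as tested had passed a minimum of 1 count over all libraries of a tissue, which all 32 and 33 did. *Eno1* passed with almost no reads, so that 31 and 32 of the genes had reads enough for a level.

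RNA was sequenced from 20 sorted samples of C57BL/6 mice aged 14 weeks. WT mice carried the Foxp3Cre allele alone, and DKO mice were Tet2/3 fl/fl Foxp3Cre, so both genotypes expressed a YFP-Cre fusion from the Foxp3 locus and the floxed Tet2 and Tet3 alleles were deleted in cells that had expressed Foxp3. In each genotype CD4+YFP+ cells (Treg cells) and CD4+YFP- cells (CD4+Foxp3- T cells) were sorted, with 2 biological replicates per group from spleen and pLNs and 3 per group from mLNs. The CD4+YFP- gate of a DKO mouse can hold cells that once expressed Foxp3, and the DKO mice used for spleen and pLNs were littermates of which one had the larger spleen. The labels do not tell which replicate that was.

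Glycolysis splits glucose into pyruvate. Glucose enters through transporters of the Slc2a family, hexokinase traps it, phosphofructokinase commits it, aldolase and triosephosphate isomerase make the triose that glyceraldehyde-3-phosphate dehydrogenase oxidises, and pyruvate kinase ends the chain. Lactate dehydrogenase then regenerates NAD+ by turning pyruvate into lactate, which leaves the cell through monocarboxylate transporters, or pyruvate dehydrogenase sends it to the mitochondrion, while the pentose phosphate pathway branches off after hexokinase and makes NADPH and ribose. T cells are known to increase glycolysis when activated, and resting Treg cells are known to depend on it less than effector T cells do.

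Libraries held 13525932 to 15253141 counted reads for spleen and pLNs and 9998478 to 15449158 for mLNs. Levels are CPM, counts scaled to a common library size, and 3 counts, the limit that a count of 0 allows, were between 0.172 and 0.299 CPM. *Foxp3*, the Treg lineage factor, was at 153 CPM or above in every Treg library and at 2.75 CPM or below in every CD4+Foxp3- library. *Tet2* and *Tet3* passed the test in DKO against WT Treg cells of neither tissue, with *Tet3* at 77.9 CPM ± 8.74 (SD, n = 3) in WT and 63.4 CPM ± 13.2 (SD, n = 3) in DKO in mLNs. In spleen and pLNs their levels lay higher in the Treg libraries labelled DKO, with *Tet3* at 30.8 CPM ± 0.295 (SD, n = 2) in WT and 49.5 CPM ± 16.2 (SD, n = 2) in DKO (log2 fold change 0.69, adjusted p = 0.101) and *Tet2* at 1.59 and 5.03 CPM (adjusted p = 0.144). Reads over all exons do not show the loss of the floxed exons, so these counts do not check the genotype. In spleen and pLNs the first DKO CD4+Foxp3- library stood apart: its summed Treg markers were at 707 CPM against 199 to 226 CPM in the other CD4+Foxp3- libraries. Several results that rest on it, or on the Treg library of the same replicate number, are given with and without them. Others, among them the *Slc2a1* and *Myc* values and the marker sums of Treg cells in these organs, are given only with them.

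A few enzymes held most of the message. On the length-corrected scale of TPM, as deposited, the mean over the 12 mLN libraries was 1287 TPM for *Gapdh*, which made 21.7% of the summed TPM of the 33 genes. *Ldha*, the lactate dehydrogenase subunit of activated cells, had a mean of 756 TPM, and *Pkm*, the pyruvate kinase of lymphocytes, one of 740 TPM. *Aldoa* (558 TPM) and *Gpi1* (430 TPM) followed. In DKO Treg cells alone *Pkm* (1075 TPM) lay above *Ldha* (1040 TPM) and *Pgk1* (609 TPM) above *Gpi1* (493.5 TPM). Without *Pkm*, the order in spleen and pLNs was led by *Gapdh* (1572 TPM), *Ldha* (824 TPM) and *Aldoa* (595 TPM). *Eno1*, the main enolase, was an exception: it was listed at 0.165 CPM or less in every library, at or under the 3-count limit, while near-identical copies of it were listed at 204 to 295 CPM in mLNs (*Eno1b*) and 229 to 288 CPM in spleen and pLNs (*Gm5506*). Reads of such copies cannot be assigned with certainty, so the level of enolase 1 is uncertain and *Eno1* carries no result here. Whether *Eno1b* and *Gm5506* are symbols of the same copy was not checked.

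**Figure D1:**
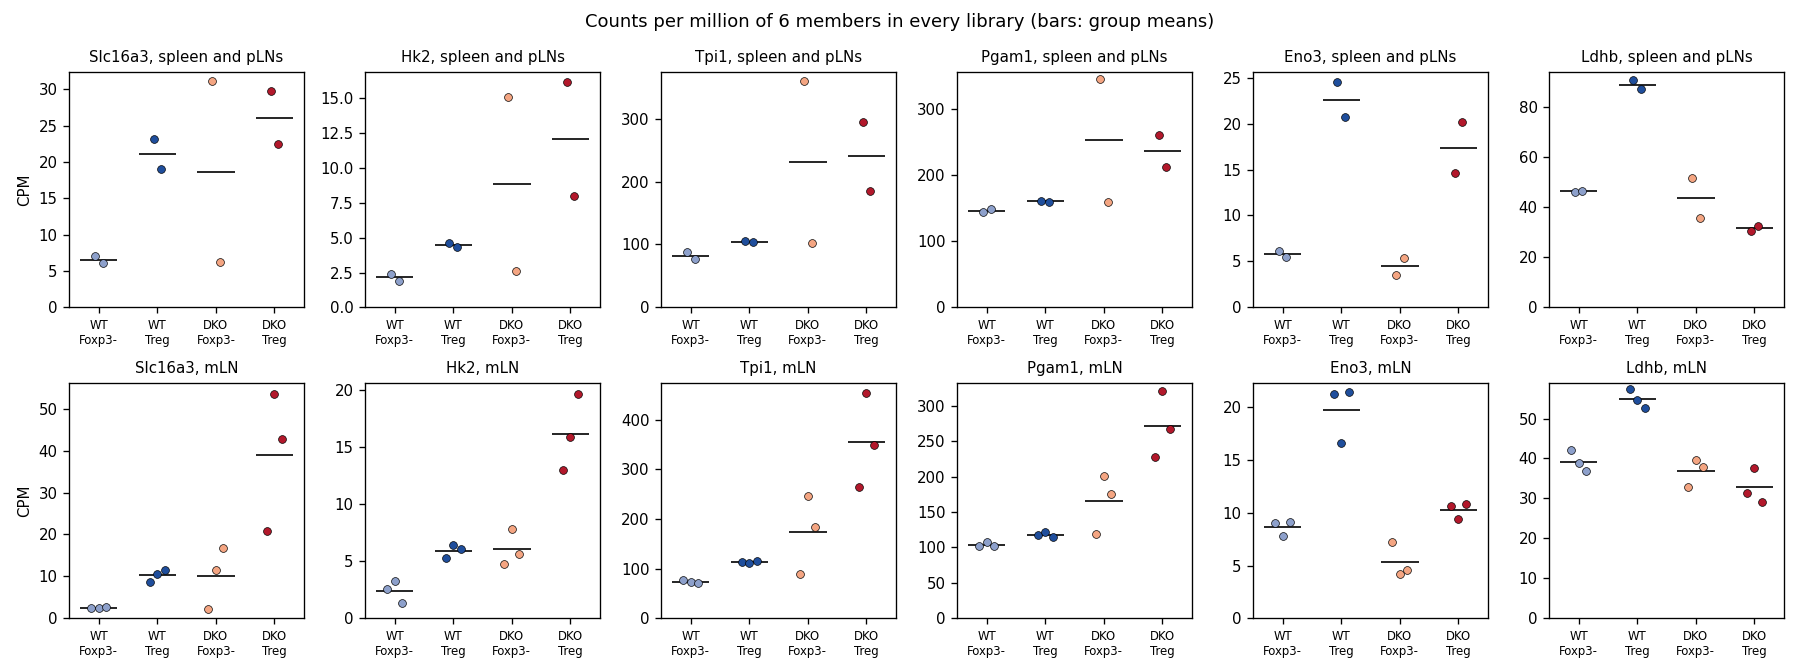
Level of *Slc16a3*, *Hk2*, *Tpi1*, *Pgam1*, *Eno3* and *Ldhb* in every library of spleen and pLNs (upper panels) and mLNs (lower panels), in CPM after TMM normalisation on linear axes that start at 0, by group (WT and DKO, CD4+Foxp3- and Treg cells, points for libraries, bars at the mean). In mLNs, DKO Treg cells lay above WT Treg cells for *Tpi1*, *Pgam1*, *Hk2* and *Slc16a3* and below them for *Ldhb* and *Eno3*, with no overlap of the libraries.

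The first comparison asked how the pathway differed between Treg cells with and without Tet2 and Tet3. In mLNs, 9 of the 33 genes rose and 2 fell in DKO Treg cells at an adjusted p of at most 0.05 (edgeR's quasi-likelihood test, Benjamini-Hochberg adjustment over all genes) and a fold change of at least 1.5. Of all 16784 genes tested, 8.5% rose and 3.43% fell by the same rule. By role, the genes that rose were 3 of the 9 upper glycolysis genes (*Hk2*, *Pfkl*, *Tpi1*) and 3 of the 7 lower glycolysis genes (*Gapdh*, *Pgam1*, *Pkm*). The others were 1 of the 6 lactate and pyruvate genes (*Slc16a3*), 1 of the 2 PFK-2 regulators (*Pfkfb4*) and 1 of the 7 pentose phosphate genes (*Pgd*). Neither glucose transporter, *Slc2a1* nor *Slc2a3*, passed the test. The genes that fell were *Ldhb* and *Eno3*.

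The median log2 fold change of the 33 genes was 0.247 against 0.005 over all genes tested, and 23 of them were higher and 10 lower in DKO Treg cells. The direction of single genes near 0 depended on the scale: on CPM of total counts 26 were higher and 7 lower, and on deposited TPM 28 were higher and 5 lower. These scales moved the median of all expressed genes itself, to 0.10 and 0.17 on the log2 scale from -0.01, and the medians of the 33 genes, 0.36 and 0.42, are to be read against it. Their summed level was 6185 to 6308 CPM in the WT Treg libraries and 7081, 9859 and 8415 CPM in the DKO Treg libraries, so the groups did not overlap and the DKO libraries differed among themselves far more than the WT ones.

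*Slc16a3*, the monocarboxylate transporter MCT4 that exports lactate, changed most among the genes that rose. It was at 8.71, 10.5 and 11.4 CPM in WT Treg cells and at 20.9, 53.5 and 42.7 CPM in DKO Treg cells, a log2 fold change of 1.94 (SE 0.47, adjusted p = 0.0126). The libraries did not overlap, but the call was lost without the first WT library (adjusted p = 0.0586) or without the second DKO library (adjusted p = 0.0509). *Slc16a1*, which encodes MCT1, was at 50.3 to 58.8 CPM in WT cells and 43.6 to 54.8 CPM in DKO Treg cells and did not pass the test.

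*Tpi1*, triosephosphate isomerase, was at 114, 111 and 114 CPM in WT Treg cells and at 264, 454 and 349 CPM in DKO Treg cells. The log2 fold change was 1.65 (SE 0.28, adjusted p = 0.00156). Every DKO library lay above every WT library. *Pgam1*, the phosphoglycerate mutase of most tissues, was at 118, 122 and 114 CPM in WT and at 227, 321 and 268 CPM in DKO Treg cells, a log2 fold change of 1.20 (SE 0.16, adjusted p = 0.000413). *Hk2*, the inducible hexokinase, was low in WT Treg cells, at 5.26, 6.45 and 6.10 CPM, and was at 13.0, 15.9 and 19.7 CPM in DKO Treg cells. Its log2 fold change was 1.45 (SE 0.27, adjusted p = 0.00317), whereas *Hk1*, the constitutive hexokinase, was at 216 to 234 CPM in WT cells and 226 to 249 CPM in DKO Treg cells.

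A further 4 genes rose by little more than the minimum of 1.5-fold. *Gapdh* was at 933, 948 and 878 CPM in WT cells and 1176, 1772 and 1394 CPM in DKO Treg cells (log2 fold change 0.65, SE 0.15, adjusted p = 0.00802), and *Pkm* at 871, 871 and 857 CPM against 1112, 1607 and 1365 CPM (0.65, SE 0.11, adjusted p = 0.00156). *Pfkl*, the liver-type phosphofructokinase subunit, was at 64.0, 69.3 and 64.6 CPM in WT and at 88.9, 120 and 103 CPM in DKO Treg cells (0.66, SE 0.18, adjusted p = 0.0227). *Pgd*, which encodes the dehydrogenase that releases the second NADPH of the pentose phosphate pathway, was at 80.2, 79.3 and 81.7 CPM in WT and at 111, 140 and 116 CPM in DKO Treg cells (0.61, SE 0.10, adjusted p = 0.00143). None of these 4 overlapped between the genotypes, which was so for 20 of the 33 genes, and the share of all genes without overlap was not computed. Their call depended on the second DKO library, without which only *Tpi1*, *Pgam1*, *Hk2*, *Ldhb* and *Eno3* were called. The share of all genes called without that library is not given here. *Pfkl* also lost its call without any 1 of the WT Treg libraries (adjusted p between 0.0587 and 0.0794), and a correction for gene length took *Pfkl*, *Gapdh*, *Pkm* and *Pgd* to log2 fold changes of 0.56, 0.52, 0.54 and 0.49, under the minimum. *Pfkfb4*, a bifunctional enzyme that sets the level of the phosphofructokinase activator fructose-2,6-bisphosphate, was at 3.62, 4.05 and 4.53 CPM in WT cells and 7.26, 7.48 and 7.13 CPM in DKO Treg cells (0.84, adjusted p = 0.0233). It was lost without the second DKO library and without the first or the second WT library.

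A group of 4 more genes was higher and 1 lower at the same adjusted p but by less than 1.5-fold. Without the fold minimum 16 of the 33 genes and 19.4% of all genes passed in either direction. *Pgk1*, phosphoglycerate kinase, had a log2 fold change of 0.58 (adjusted p = 0.0114), *Ldha* one of 0.50 (adjusted p = 0.00373), *Aldoa* one of 0.47 (adjusted p = 0.0151) and *Tkt*, transketolase, one of 0.28 (adjusted p = 0.0397). *Pdha1*, a subunit of pyruvate dehydrogenase, was at 266, 252 and 275 CPM in WT and at 197, 205 and 226 CPM in DKO Treg cells (-0.34, adjusted p = 0.0326). *G6pdx*, the entry enzyme of the pentose phosphate pathway, had a log2 fold change of 0.32 that did not pass (adjusted p = 0.0824), and *Rpe*, *Rpia*, *Pgls* and *Taldo1*, the other pentose phosphate genes, had values between -0.13 and 0.31 that did not pass either.

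**Figure D2:**
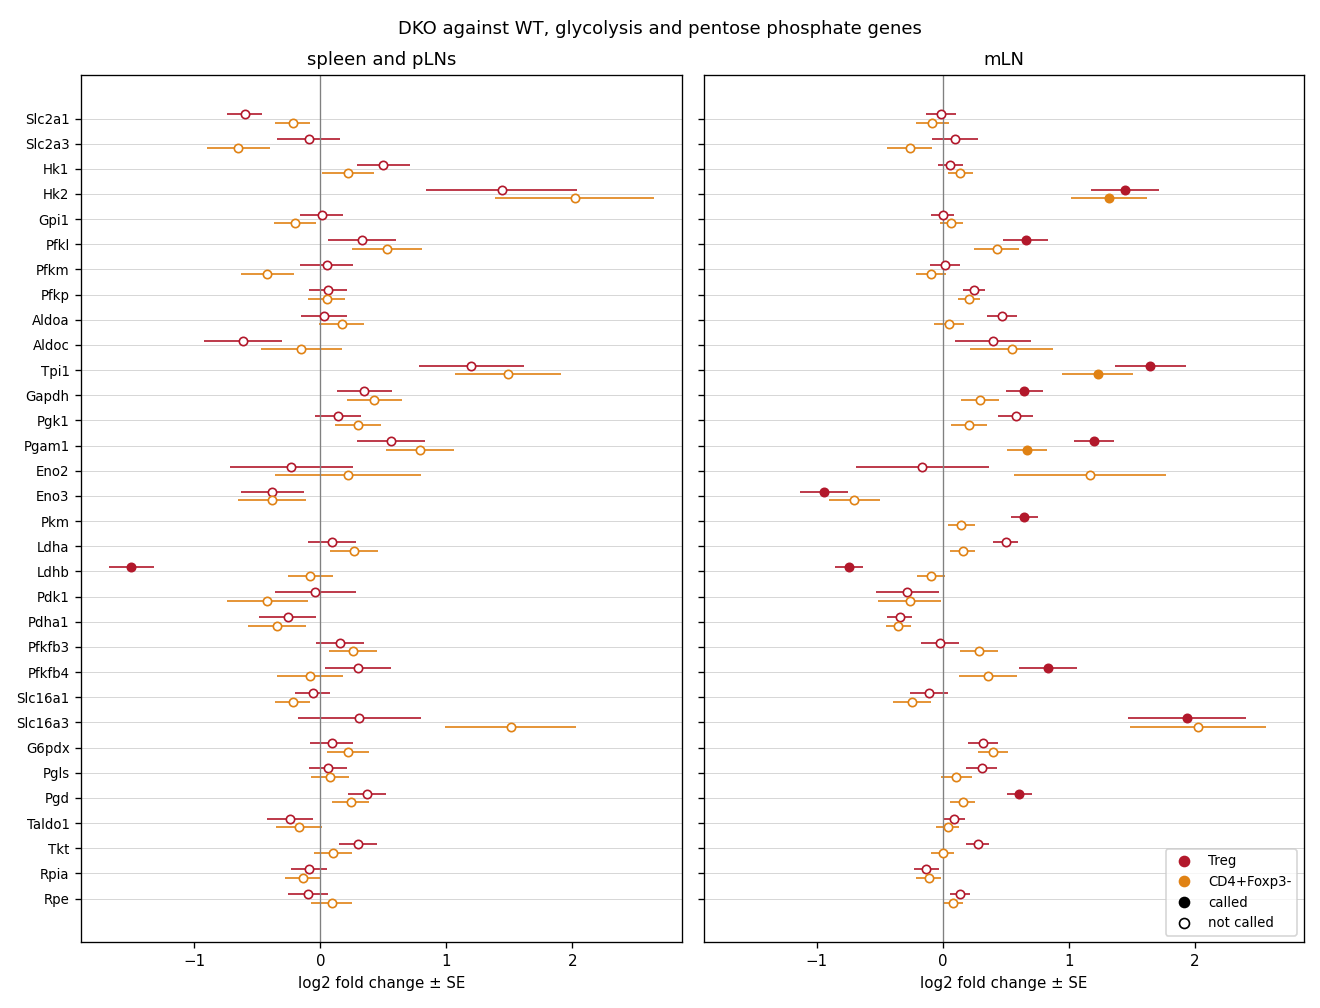
Log2 fold change of DKO against WT for each gene, with its standard error as a bar, in Treg and CD4+Foxp3- cells of both tissues, filled where the gene was called (adjusted p of at most 0.05 and at least 1.5-fold) without *Eno1* and with *Pkm* in mLNs only. In mLN Treg cells 11 genes were called, with *Slc16a3* at 1.94 and *Eno3* at -0.94 at the ends.

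*Ldhb*, the lactate dehydrogenase subunit typical of oxidative tissues, was among the genes that fell. It was at 57.4, 54.6 and 52.5 CPM in mLN WT Treg cells and at 31.5, 37.7 and 29.1 CPM in DKO Treg cells, a fall by 0.74 on the log2 scale (SE 0.11, adjusted p = 0.000725). Spleen and pLN WT Treg cells had 90.9 and 87.2 CPM and DKO Treg cells 30.6 and 32.6 CPM in DKO Treg cells, a level 2.82-fold lower (SE 0.18 on the log2 scale, adjusted p = 0.00246). The genotypes overlapped in neither tissue. *Ldhb* was the 1 gene of 32 called in Treg cells of spleen and pLNs, lower, against 0.605% of 16357 genes. The call was lost without either WT library or without the first DKO library (adjusted p between 0.0833 and 0.121), with the log2 fold change between -1.53 and -1.45, and on total count scaling (-1.31, adjusted p = 0.0526).

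*Eno3*, the enolase of muscle, fell by 0.94 in mLN DKO Treg cells (SE 0.19, adjusted p = 0.00468), from 21.3, 16.6 and 21.4 CPM to 10.7, 9.42 and 10.8 CPM. Its libraries did not overlap, and the call held without any 1 of the 6 Treg libraries, as it did for *Ldhb*, *Tpi1*, *Pgam1* and *Hk2*. *Eno3* in spleen and pLNs measured 24.5 and 20.7 CPM in WT Treg cells and 14.6 and 20.1 CPM in DKO Treg cells, and did not pass the test (-0.38, adjusted p = 0.426).

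No gene of the 32 was called higher in DKO Treg cells of spleen and pLNs, where 1.14% of all genes were. By DESeq2's Wald test the count was also 0, and 6 of the 32 had an unadjusted p of at most 0.05 by edgeR in either direction, against 20.4% of all genes. The first DKO library was the higher of the pair for several of the genes that rose in mLNs. *Tpi1* was at 105 and 103 CPM in WT cells and at 295 and 186 CPM in DKO Treg cells (1.20, SE 0.42, adjusted p = 0.136), and *Hk2* at 4.61 and 4.32 CPM against 16.1 and 7.99 CPM (1.44, SE 0.60, adjusted p = 0.201). Neither overlapped, which was so for 20 of the 32 genes, and the share of all genes without overlap was not computed. Without the first DKO replicate of both cell types, 1 DKO library per cell type was left and the spread came from the WT groups. The log2 fold changes of *Tpi1* and *Hk2* were then 0.83 and 0.84. *Slc16a3* overlapped between the genotypes, with 23.2 and 19.1 CPM in WT Treg cells and 29.8 and 22.5 CPM in DKO Treg cells. *Slc2a1*, the glucose transporter GLUT1, measured 74.2 and 77.3 CPM in WT Treg cells and 49.2 and 50.9 CPM in DKO Treg cells, a value of -0.60 (SE 0.14) at an adjusted p of 0.0525. *Pkm2*, the older symbol of *Pkm*, was at 1010 and 960 CPM in WT cells and at 1269 and 1061 CPM in DKO Treg cells (0.24, adjusted p = 0.591).

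The scale mattered more in this tissue. Of the 32 genes, 19 were higher and 13 lower in DKO Treg cells on CPM after TMM, 24 and 8 on CPM of total counts and 27 and 5 on TPM. The median of all expressed genes was -0.01, 0.17 and 0.33 on these scales, and the median of the 32 genes was 0.05, 0.24 and 0.39. The summed TPM of the 32 genes was 4890 and 4745 in WT Treg cells and 7856 and 5807 in DKO Treg cells, while on CPM after TMM their sum was 6302 and 6286 in WT and 7060 and 6765 in DKO Treg cells.

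Promoters of 4 genes that rose and of *Ldhb*, which fell, in mLN DKO Treg cells are shown here so that the letters can be set beside the values, since members of this pathway are textbook targets of Hif1, which binds the hypoxia response core ACGTG. RefSeq promoter sequences on GRCm38.p6, 300 bases that span a gene's start, were matched for 32 of the 33 genes by symbol, which gave 46 promoters. The core, read on both strands, was in 18 of these 46, or 39.1%, and in 19.6% of all 32851 promoters. Promoters of a gene with several starts can overlap and hold the same core, as for *Aldoa*, so they are not independent. A core can be part of the E-box CACGTG, which Myc family proteins bind, and that E-box was in 8.7% of the gene set's promoters and 7.15% of all. The promoters of the set also held more CpG dinucleotides, a median of 20 against 7, so base composition moved with the share of cores, and its part in it was not tested. Of the 9 genes that rose in mLN DKO Treg cells, 5 held a core in at least 1 promoter (*Slc16a3*, *Hk2*, *Pgam1*, *Gapdh* and *Pkm*), against 15 of all 32 matched genes, and *Tpi1*, *Pfkl*, *Pfkfb4* and *Pgd* held none, and 0 of the 2 that fell held one. In the 5 promoters below, 5′ to 3′ on the gene's strand and in lower case, capitals mark a core on either strand.
Slc16a3: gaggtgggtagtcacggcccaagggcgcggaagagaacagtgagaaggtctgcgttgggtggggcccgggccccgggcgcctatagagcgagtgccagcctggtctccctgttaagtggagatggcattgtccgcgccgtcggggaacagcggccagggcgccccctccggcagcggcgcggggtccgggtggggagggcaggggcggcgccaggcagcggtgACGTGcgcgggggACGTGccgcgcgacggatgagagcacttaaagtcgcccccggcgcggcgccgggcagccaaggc
Hk2: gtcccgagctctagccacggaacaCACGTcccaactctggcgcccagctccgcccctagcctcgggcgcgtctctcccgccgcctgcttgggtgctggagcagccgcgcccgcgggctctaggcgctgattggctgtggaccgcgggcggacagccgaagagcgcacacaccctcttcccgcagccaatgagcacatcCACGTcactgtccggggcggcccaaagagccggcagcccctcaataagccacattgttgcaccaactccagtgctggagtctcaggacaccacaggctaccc
Pgam1: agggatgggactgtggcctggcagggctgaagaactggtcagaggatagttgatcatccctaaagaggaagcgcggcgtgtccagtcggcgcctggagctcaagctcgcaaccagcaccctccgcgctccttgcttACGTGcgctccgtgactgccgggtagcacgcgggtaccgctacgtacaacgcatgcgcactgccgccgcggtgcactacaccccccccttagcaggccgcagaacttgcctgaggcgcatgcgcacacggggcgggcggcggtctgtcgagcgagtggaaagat
Tpi1: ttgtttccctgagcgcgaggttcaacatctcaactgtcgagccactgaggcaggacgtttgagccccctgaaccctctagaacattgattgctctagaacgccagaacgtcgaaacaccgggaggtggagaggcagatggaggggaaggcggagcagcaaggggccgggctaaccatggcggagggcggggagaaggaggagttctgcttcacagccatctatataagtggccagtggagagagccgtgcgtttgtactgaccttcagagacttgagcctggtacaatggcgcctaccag
Ldhb: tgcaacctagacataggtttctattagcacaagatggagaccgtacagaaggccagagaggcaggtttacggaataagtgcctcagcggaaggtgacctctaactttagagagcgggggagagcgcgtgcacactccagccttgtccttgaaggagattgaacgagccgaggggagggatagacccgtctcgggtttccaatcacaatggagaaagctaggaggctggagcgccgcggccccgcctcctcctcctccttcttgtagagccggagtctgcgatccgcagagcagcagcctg
The first is chr11:120948817-120949116 on the plus strand and holds 2 cores, and the second, chr6:82774405-82774704 on the minus strand, also holds 2. The *Pgam1* promoter, chr19:41911621-41911920 on the plus strand, holds 1. The promoters of *Tpi1* (chr6:124814109-124814408, minus strand) and of *Ldhb* (chr6:142507908-142508207, minus strand) hold none in this window, although *Tpi1* rose and *Ldhb* fell. On the build of the counts, mm9, the genes lie at chr11:120809794-120822182 (*Slc16a3*), chr6:82675019-82724448 (*Hk2*), chr19:41986361-41993154 (*Pgam1*), chr6:124760604-124764314 (*Tpi1*) and chr6:142438769-142456477 (*Ldhb*).

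CD4+Foxp3- cells of the same mice were compared in the same way, to ask whether the genotype difference was also present in T cells outside the Treg gate. In mLNs, 3 of the 33 genes rose (3.12% of all genes) and 0 fell (0.304% of all genes). DESeq2's Wald test called 4 higher and 1, *Eno3*, lower, and 5.54% of all genes in either direction. The genes that rose were *Tpi1*, *Pgam1* and *Hk2*, and 9 of the 33 had an unadjusted p of at most 0.05, against 18.7% of all genes. *Tpi1* was at 77.1, 73.0 and 71.0 CPM in WT and at 89.2, 247 and 183 CPM in DKO cells (1.23, SE 0.28, adjusted p = 0.0279). *Pgam1* was at 101, 108 and 102 CPM in WT and at 120, 201 and 175 CPM in DKO cells (0.67, SE 0.16, adjusted p = 0.0362), and *Hk2*, named after its values were seen because its level is under 10 CPM, at 2.55, 3.31 and 1.30 CPM against 4.79, 7.81 and 5.66 CPM (1.32, SE 0.30, adjusted p = 0.0279). The groups did not overlap for any of them, and the first DKO library was the lowest of its group in all 3.

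*Slc16a3* showed the spread among DKO mice most clearly. It was at 2.47, 2.43 and 2.59 CPM in WT CD4+Foxp3- cells of mLNs and at 2.31, 11.5 and 16.7 CPM in DKO cells, so that the first DKO library lay just under the WT libraries and the others well above them (2.03, SE 0.54, adjusted p = 0.0575). The calls in these cells rested on few libraries. Without the first DKO library 6 genes were called (*Pfkl*, *Eno3* and *Slc16a3* in addition), where 8.69% of all genes were, without the third only *Hk2* (3.31% of all genes), and without the second (2.5% of all genes), or without any 1 of the WT libraries (0.341% to 0.658% of all genes), 0. *Eno3* was at 9.02, 7.83 and 9.18 CPM in WT cells and 7.27, 4.22 and 4.60 CPM in DKO cells (-0.70, adjusted p = 0.0769), and DESeq2's Wald test called it, as it did *Slc16a3*. *Ldhb* was at 42.1, 38.8 and 36.8 CPM in WT cells and 32.8, 39.6 and 37.8 CPM in DKO cells, which overlapped (-0.09, adjusted p = 0.679).

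In CD4+Foxp3- cells of spleen and pLNs, 0 of the 32 genes were called higher (0.77% of all genes) and 0 lower (0.0489% of all genes), with 5 at an unadjusted p of at most 0.05 (12.9% of all genes), and DESeq2's Wald test called *Tpi1* alone (1.51, adjusted p = 0.0394) and 2.3% of all genes. The DKO libraries differed widely. *Tpi1* was at 87.9 and 76.7 CPM in WT cells and at 359 and 103 CPM in DKO cells, *Hk2* at 2.43 and 1.93 CPM against 15.1 and 2.59 CPM, and *Pgam1* at 144 and 148 CPM against 346 and 160 CPM. The first DKO library, which stood apart in its Treg markers, was the high one each time. It was also the highest of the 4 CD4+Foxp3- libraries in summed proliferation genes (946 CPM against 550.2 to 624 CPM), CD8 T and NK markers (216 CPM against 72.8 to 114 CPM) and myeloid markers (26.0 CPM against 6.84 to 15.8 CPM). It was also at 31.1 CPM for *Slc16a3*, against 6.22 CPM in the second and 7.06 and 6.11 CPM in WT, and low for *Slc2a3* (38.9 CPM against 78.5, 89.8 and 94.0 CPM) and for *Pdk1* (116 CPM against 291, 254 and 292 CPM). With this library as the only DKO one, 9 of the 32 genes were called, where 16.9% of all genes were, and with the second as the only one 0, where 0.516% of all genes were. On CPM after TMM, 18 of the 32 genes were higher and 13 lower in DKO cells, against 26 and 5 on TPM, where the median of all expressed genes was 0.24.

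Whether the genotype difference was itself different between Treg and CD4+Foxp3- cells was tested by the interaction. It passed at an adjusted p of at most 0.05 for 0 of the 33 genes in mLNs (0.119% of all genes positive, 0.161% negative) and for 0 of the 32 in spleen and pLNs (0% positive, 0.00611% negative), by edgeR. At an unadjusted p of at most 0.05 there were 7 and 1, against 10.9% and 5.53% of all genes. DESeq2's Wald test called 1 in each tissue, *Ldhb*, where it called 2.44% of all genes in mLNs and 0.0672% in spleen and pLNs, with an interaction of -1.42 in spleen and pLNs (adjusted p = 0.0158), where edgeR gave -1.41 (SE 0.25, adjusted p = 0.173). In mLNs edgeR gave -0.65 for *Ldhb* (SE 0.15, adjusted p = 0.101) and DESeq2 an adjusted p of 0.0087. For *Pkm* the mLN value was 0.50 (adjusted p = 0.207), for *Pgd* 0.45 (adjusted p = 0.221), for *Tpi1* 0.42 (adjusted p = 0.777), for *Slc16a3* -0.09 and for *Hk2* 0.12. With all libraries, no gene that rose in mLN DKO Treg cells was therefore shown to differ in its response between the cell types. With same-numbered libraries of a genotype as a block the count was again 0 in each tissue, where 0.703% of all genes passed in mLNs and 0% in spleen and pLNs. At an unadjusted p of at most 0.05 the block gave 9 in mLNs and 2 in spleen and pLNs, against 13.6% and 5.34% of all genes. In mLNs several genes then lay close to the threshold: *Ldhb* (-0.65, SE 0.12, adjusted p = 0.0512), *Pgd* (0.45, SE 0.08, adjusted p = 0.0555), *Pgam1* (0.55, SE 0.10, adjusted p = 0.0578), *Pkm* (0.49, SE 0.10, adjusted p = 0.0747) and *Gapdh* (0.35, SE 0.08, adjusted p = 0.0937). The count moved when single DKO libraries were left out, and so did that of all genes. In mLNs, *Ldhb* and *Pfkfb3* passed without the first DKO CD4+Foxp3- library (1.4% of all genes) and *Ldhb* and *Pgd* without the second (2.77% of all genes). For spleen and pLNs, *Ldhb* passed without the second DKO Treg library (1.65% of all genes), and *Ldhb*, *Slc16a3*, *Slc2a3* and *Pdk1* without the second DKO CD4+Foxp3- library (4.14% of all genes).

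Treg cells and CD4+Foxp3- cells were also compared within each genotype, to see which genes set Treg cells apart before and after deletion. These comparisons share their groups with those above, so the values are set side by side and no agreement between them is read. In mLNs of WT mice, 5 of the 33 genes were higher in Treg cells (6.91% of all genes) and 2 were lower (3.14% of all genes). In DKO mice 7 were higher (7.75%) and 1 was lower (3.49%). The higher genes in WT were *Slc16a3*, *Aldoc*, *Hk2*, *Eno3* and *Slc2a3*, and in DKO *Tpi1* and *Pgam1* were called as well. On CPM after TMM 20 of the 33 genes were higher and 13 lower in WT Treg cells, and 28 and 5 on TPM, where the median of all expressed genes was 0.13. The DKO counts were 26 and 7 on CPM after TMM and 30 and 3 on TPM, with an all-gene median of 0.23.

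*Slc2a3*, the high-affinity glucose transporter GLUT3, separated the cell types in every mLN library. It was at 55.8, 61.8 and 55.6 CPM in CD4+Foxp3- and at 121, 135 and 123 CPM in Treg cells of WT mice (1.13, SE 0.18, adjusted p = 0.000971). In DKO mice it was at 52.5, 41.9 and 50.8 CPM against 91.6, 177 and 137 CPM (1.48, SE 0.18, adjusted p = 0.000157). *Slc2a3* in spleen and pLNs was at 38.9 and 78.5 CPM in DKO CD4+Foxp3- cells and at 161 and 160 CPM in DKO Treg cells (1.45, SE 0.25, adjusted p = 0.00632). The call was lost without the first DKO Treg library and with same-numbered libraries as a block (adjusted p = 0.0524). WT cells of these organs had 89.8 and 94.0 CPM against 163 and 179 CPM and did not pass (0.90, adjusted p = 0.0738). *Slc2a1* did not pass in any of these 4 comparisons.

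*Eno3* was higher in Treg cells in all 4 comparisons. In WT mLNs it was at 9.02, 7.83 and 9.18 CPM in CD4+Foxp3- and 21.3, 16.6 and 21.4 CPM in Treg cells (1.19, SE 0.19, adjusted p = 0.00113), and the DKO value was 0.95 (SE 0.20, adjusted p = 0.0055). Its level in spleen and pLNs rose from 6.15 and 5.47 CPM to 24.5 and 20.7 CPM in WT (1.96, SE 0.27, adjusted p = 0.00118) and from 3.58 and 5.41 CPM to 14.6 and 20.1 CPM in DKO (1.95, SE 0.27, adjusted p = 0.00154). The WT call there was lost without the second WT CD4+Foxp3- library (adjusted p = 0.0543). *Eno3* and *Ldhb* in WT, and *Eno3* and *Slc2a3* in DKO, were the genes of the 32 called higher in Treg cells of spleen and pLNs, against 2.48% and 2.16% of all genes, and 0 were lower in either genotype, against 1.52% and 1.61%. At an unadjusted p of at most 0.05 there were 8 and 6 (13.7% and 14.2% of all genes), and DESeq2's Wald test called 3 and 2, none of them lower. Without the first DKO CD4+Foxp3- library 7 genes were called between the DKO cell types (*Aldoc*, *Slc16a3*, *Pdk1*, *Hk2* and *Tpi1* in addition), where 9.85% of all genes were. Without the first DKO replicate of both cell types 9 were called between the WT cell types, where 13.1% of all genes were.

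*Ldhb* separated the cell types in WT mice. Spleen and pLNs of WT mice had it at 46.2 and 46.6 CPM in CD4+Foxp3- cells and 90.9 and 87.2 CPM in Treg cells (0.94, SE 0.18, adjusted p = 0.0091). The call was lost without any 1 of these 4 libraries, on total count scaling (adjusted p = 0.0514) and with same-numbered libraries as a block (adjusted p = 0.0624). In DKO mice *Ldhb* was at 51.8 and 35.7 CPM against 30.6 and 32.6 CPM (-0.47, adjusted p = 0.219). In mLNs the WT value was 0.48 (adjusted p = 0.0091), under 1.5-fold, and the DKO value -0.17 (adjusted p = 0.345).

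*Pdk1*, a kinase that inactivates pyruvate dehydrogenase, was lower in Treg cells. In mLNs it was at 375, 358 and 434 CPM in CD4+Foxp3- and 173, 154 and 186 CPM in Treg cells of WT mice (-1.18, SE 0.25, adjusted p = 0.00662). In DKO mice it was at 476, 178 and 325 CPM against 134, 126 and 164 CPM (-1.20, SE 0.25, adjusted p = 0.0051). The DKO libraries came close to each other, at 178 and 164 CPM, but did not overlap. *Pfkfb4* was the other gene lower in WT Treg cells, at 5.36, 7.83 and 8.18 CPM in CD4+Foxp3- and 3.62, 4.05 and 4.53 CPM in Treg cells (-0.81, SE 0.23, adjusted p = 0.0336), and it kept its call only where the first WT CD4+Foxp3- library was the one left out.

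**Figure D3:**
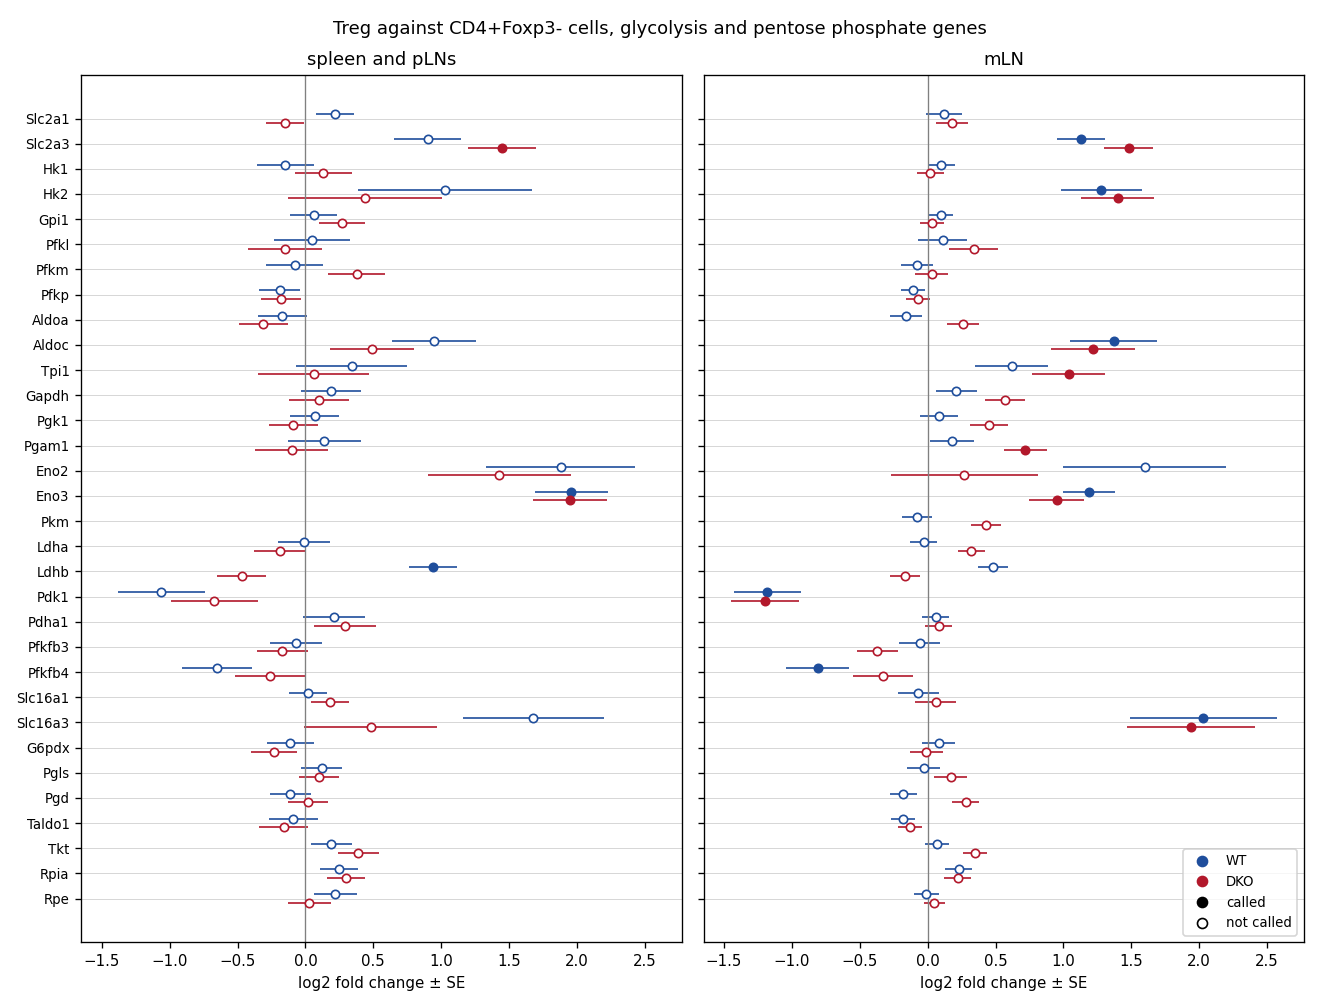
Log2 fold change of Treg against CD4+Foxp3- cells for each gene, with its standard error as a bar, in WT and DKO mice of both tissues, filled where the gene was called and without *Eno1*. *Eno3* was called in all 4 comparisons (0.95 to 1.96), and *Pdk1* was lower in mLN Treg cells of both genotypes (-1.18 and -1.20).

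*Slc16a3* and *Hk2* were higher in mLN Treg cells of both genotypes. *Slc16a3* differed by 2.03 in WT (SE 0.54, adjusted p = 0.0234) and by 1.94 in DKO (SE 0.47, adjusted p = 0.0122). The WT call was lost without any 1 library other than the first WT Treg library (adjusted p between 0.0628 and 0.0836) and the DKO call without the second DKO Treg library (adjusted p = 0.0504). *Hk2* differed by 1.28 in WT (SE 0.30, adjusted p = 0.0112) and was 2.65-fold higher in DKO Treg cells (log2 SE 0.27, adjusted p = 0.00329). *Tpi1* differed by 1.04 in DKO mLNs (SE 0.27, adjusted p = 0.0178) and *Pgam1* by 0.72 (SE 0.16, adjusted p = 0.00732), whereas their WT values, 0.62 and 0.18, did not pass. Without the second DKO Treg library neither was called, and without the first DKO CD4+Foxp3- library *Pgam1* fell under 1.5-fold. With same-numbered libraries as a replicate block, *Tpi1* was called in WT mLNs as well (adjusted p = 0.00911). *Aldoc*, an aldolase of brain, was under 12 CPM in every mLN library and differed by 1.37 in WT (adjusted p = 0.0114) and by 1.22 in DKO (adjusted p = 0.0153), and the WT call was lost without the third WT CD4+Foxp3- library.

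Several steps of the chain are served by more than one gene, and the share of each in its step was computed on TPM, which correct for length. *Ldhb* made 10.5% ± 0.610 (SD, n = 3) of the TPM of *Ldha* and *Ldhb* in mLN WT Treg cells and 4.76% ± 0.610 (SD, n = 3) in DKO Treg cells. Its share in spleen and pLNs was 12.7% ± 0.785 (SD, n = 2) in WT and 4.61% ± 0.264 (SD, n = 2) in DKO Treg cells. WT Treg cells thus had the highest *Ldhb* share of the 4 groups in both tissues and DKO Treg cells the lowest. *Slc16a3* made 24.5% ± 3.62 (SD, n = 3) of the *Slc16a1* and *Slc16a3* TPM in mLN WT Treg cells and 55.3% ± 9.07 (SD, n = 3) in DKO Treg cells, with 7.03% ± 0.722 (SD, n = 3) in WT and 26.2% ± 17.6 (SD, n = 3) in DKO CD4+Foxp3- cells. Its shares in spleen and pLNs overlapped, at 30.6% and 35.6% in WT and 42.3% and 35.2% in DKO Treg cells. *Hk2* stayed a small part of the hexokinase TPM, at 2.1% ± 0.131 (SD, n = 3) in mLN WT Treg cells and 5.34% ± 1.19 (SD, n = 3) in DKO Treg cells. *Slc2a3* made 61.4% ± 1.10 (SD, n = 3) of the glucose transporter TPM in mLN WT Treg cells and 62.6% ± 5.33 (SD, n = 3) in DKO Treg cells, above the 44.2% ± 2.07 (SD, n = 3) and 41.0% ± 2.91 (SD, n = 3) of WT and DKO CD4+Foxp3- cells. In Treg cells of spleen and pLNs the *Slc2a3* share was 59.4% ± 0.976 (SD, n = 2) in WT and 67.6% ± 0.686 (SD, n = 2) in DKO, with no overlap. These shares are descriptions and were not tested.

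**Figure D4:**
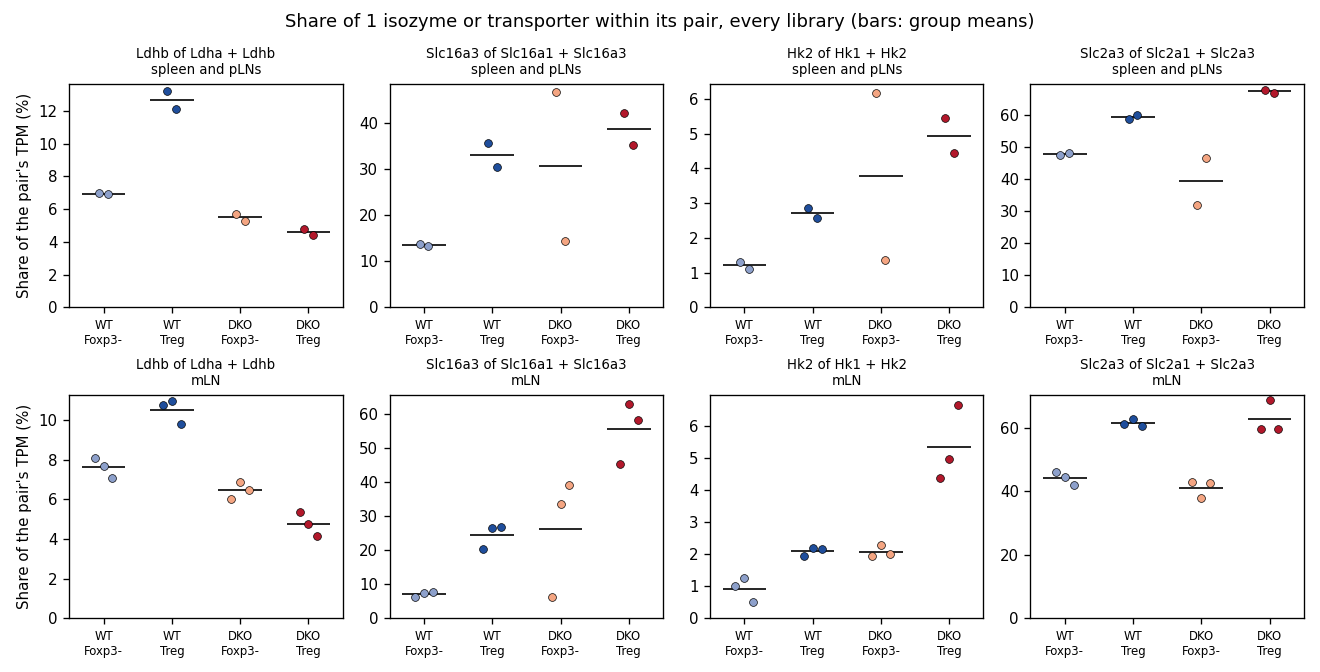
Share of a step's TPM, in percent, made by 1 of the genes that serve it, in every library of both tissues by group. The *Ldhb* share was lower in DKO than in WT Treg cells (4.76% against 10.5% in mLNs), and the *Slc16a3* share was higher in mLNs (55.3% against 24.5%) but overlapped in spleen and pLNs.

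The other genes of these pathways, a list of regulators and side branches, numbered 45 among the genes tested in each tissue. In mLN DKO Treg cells 3 of the 45 rose and 3 fell, where 8.5% and 3.43% of all genes did. *Slc2a6*, a hexose transporter of lysosomes, rose by 3.60 on the log2 scale (adjusted p = 0.000141), *Hif1a*, the hypoxia-inducible factor subunit, by 1.28 (adjusted p = 0.0119) and *Dera*, an aldolase that links deoxyribose phosphate to glycolysis, by 0.66 (adjusted p = 0.00123). *Hif1a* was at 499, 508 and 493 CPM in WT and at 1368, 1218 and 1064 CPM in DKO Treg cells, with no overlap. *Txnip*, which restrains glucose uptake, fell by 0.80 (adjusted p = 0.00301), *Adpgk*, an ADP-dependent glucokinase, by 0.60 (adjusted p = 0.0198), and *Ldhd*, the D-lactate dehydrogenase, by 1.89 from a level under 10 CPM. In mLN CD4+Foxp3- cells *Hif1a* (1.44, adjusted p = 0.0234) and *Slc2a6* (2.98) rose, and *Hif1a* was at 241, 262 and 235 CPM in WT and at 279, 1032 and 694 CPM in DKO cells, the first DKO library again the lowest of its group. *Myc*, a transcription factor that drives growth, rose in DKO Treg cells of spleen and pLNs (0.86, adjusted p = 0.0274), and it was the 1 call of the list there. Between the cell types, *Galm*, which interconverts the anomers of glucose, was higher in Treg cells of mLNs in WT (1.52) and DKO mice (1.26) and of spleen and pLNs in WT mice (1.11). *Hif1a* (1.02) and *Pdk3* (0.65) were also higher in WT mLN Treg cells, and in DKO mLN Treg cells *Slc2a6* was higher (2.18) and *Txnip* lower (-0.71).

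Markers of other states and cell types moved with the genotype. In mLN DKO Treg cells 9 of 10 proliferation genes were called higher, and their summed level was 1050 to 1314 CPM against 600 to 694 CPM in WT Treg cells. Summed markers of CD8 T and NK cells were at 75.4 to 160 CPM in mLN DKO Treg libraries against 21.3 to 28.4 CPM in WT, and those of myeloid cells at 14.2 to 26.1 CPM against 2.85 to 4.68 CPM. Of the former, *Klrb1c* rose and *Cd8b1* fell. The B cell sum was 8.81 to 20.8 CPM in DKO against 26.8 to 35.4 CPM in WT, but of its genes *Cd79b* fell (30.2 to 9.62 CPM) and *Pax5* rose (0 to 1.48 CPM). The summed Treg markers were at 1480 to 1679 CPM in mLN DKO Treg cells against 1878 to 2040 CPM in WT, with no overlap, and 1 of the 5 was called lower, *Il2ra*, the high-affinity IL-2 receptor subunit (-1.12, adjusted p = 0.00516). In Treg cells of spleen and pLNs the myeloid sum was 11.7 to 31.9 CPM in DKO against 2.69 to 4.73 CPM in WT, and the CD8 T and NK sum 98.1 to 119 CPM against 23.3 to 27.1 CPM. The proliferation sum there was 760.4 to 803 CPM against 620.3 to 646 CPM, with 1 of the 10 genes called higher, the neutrophil sum 1.36 to 6.3 CPM against 0 CPM, and the B cell sum 9.83 to 13.2 CPM against 27.7 to 29.6 CPM, with 1 of its 5 genes called higher and 1 lower. None of these sums overlapped between the genotypes. In mLN CD4+Foxp3- cells 6 of the 10 proliferation genes and 2 of 5 Treg markers were called higher in DKO. The CD8 T and NK sum of these cells was 40.4 to 140.5 CPM against 29.8 to 34.2 CPM, but 1 of its 4 genes was called higher and 1 lower. Their Treg markers summed to 178, 349 and 249 CPM in the DKO libraries, against 133 to 137 CPM in WT, and their B cell markers to 2.4, 16.3 and 4.86 CPM. The second DKO library, without which no gene was called there, was thus the highest in both. It was also the highest in CD8 T and NK markers (140.5 CPM), in myeloid markers (26.2 CPM against 7.54 and 9.99 CPM in the other DKO libraries) and in T cell markers (3940 CPM against 2836 and 2677 CPM). In proliferation genes it lay between the other DKO libraries (600 CPM against 579 and 625 CPM). The part of proliferation or of other cells in the differences above was not tested, and in bulk samples more cells of a kind and more RNA per cell cannot be told apart.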

How the data were processed

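RNA was measured in 20 sorted libraries. The deposited counts come from reads aligned by the authors to mm9 (TopHat2 2.1.1, at most 1 alignment per read) and counted by strand on RefSeq genes with featureCounts (Subread 1.4.3-p1), without normalization. The deposited TPM were calculated in a way not given in the sources used here, and were used for shares, sums and order of genes. The authors tested counts with DESeq2.

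Counts were scaled by TMM and tested with edgeR 4.0.16 (limma 3.58.1, R 4.3.3) by the quasi-likelihood test in 1 fit per tissue, which held all 4 groups, on genes with at least 1 count in total (16357 in spleen and pLNs, 16784 in mLNs). P-values were adjusted by Benjamini-Hochberg over all genes tested. Calls needed an adjusted p of at most 0.05 with a 1.5-fold change or more, and an interaction at an adjusted p of at most 0.05. P-values measure the spread between these replicates. Columns without a sample numbered 0. Depth was 13525932 to 15253141 and 9998478 to 15449158 reads, and biological coefficients of variation were 21.6% and 17.7%. Limits from 3 counts cover counting error only.

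Full statistics went to members called in a comparison whose higher group had a mean of 10 CPM or more, at most 12 per comparison. Values of other members, called or not, are given beside them. The members, the lists and this rule were chosen with earlier results of these data known. Whether libraries overlapped was no part of the rule and is a description, and the share of all genes without overlap was not computed. The scripts were tested on simulated data.

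In mLNs, deviations of same-numbered libraries correlated within a genotype (Pearson's r 0.171 to 0.183 in WT and 0.110 to 0.390 in DKO, 3 pairs each). The numbers were therefore taken to pair Treg with CD4+Foxp3- libraries there. The main tests do not use this pairing, and only the replicate block does. Across genotypes r was -0.017 to 0.086 in Treg and 0.020 to 0.114 in CD4+Foxp3- cells, and the latter reached the lowest value within DKO. Whether the numbers also link libraries across genotypes is thus not clear. In spleen and pLNs, r of same-numbered libraries was 0.213 in WT and 0.336 in DKO within a genotype and 0.155 to 0.221 across genotypes. What the numbers mark there was not tested.

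Alternatives were DESeq2 1.42.0 (Wald test, or its size factors in edgeR), filterByExpr, a robust prior, a replicate block (within genotype for comparisons of cell types and the interaction, across genotypes for DKO against WT), the 2 groups alone, no fold minimum and leaving out each replicate. A length correction by loess, total count scaling and leaving out the first DKO replicate of both cell types in spleen and pLNs were chosen after seeing the data. Promoters are RefSeq's on GRCm38.p6, and mm9 positions are from GENCODE M1, not the RefSeq annotation that was counted on. Figures were drawn with matplotlib 3.10.9 (Python 3.11.15, pandas 2.3.3).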

Additional observations from a re-analysis of the deposited data

How the results depend on the processing

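Under the alternatives run, none of the called results given with full statistics changed direction, which their being called had made unlikely. Results that were not called could turn: the mLN interaction of *Slc16a3* was negative in the main fit and 0.11 with the replicate block. Of the values of the called results, 329 kept the call and 58 lost it. In mLN Treg cells DKO against WT gave 11 genes called, 7 with the length correction and 5 to 14 without 1 replicate. Shares of all genes are not set beside the counts of this section, so a change in a count can be one that all genes share. In mLN CD4+Foxp3- cells the count was 3, and 5 with DESeq2, 1 with the robust prior, 5 with the replicate block, 0 with the 2 groups alone and 0 to 6 without 1 replicate. In spleen and pLNs the Treg count was 1, and 4 with the 2 groups alone, 2 with the length correction, 0 with total count scaling, 3 without the first DKO replicate of both cell types and 0 to 3 without 1 replicate. The CD4+Foxp3- count was 0, and 1 with DESeq2 and 0 to 9 without 1 replicate. Treg against CD4+Foxp3- cells gave 7 in WT mLNs (4 to 6 without 1 replicate) and 8 in DKO mLNs, and in the latter 2 with the 2 groups alone, 13 with no fold minimum and 5 to 10 without 1 replicate. In spleen and pLNs it gave 2 in WT, and 1 with the block, 9 with the 2 groups alone, 1 with total count scaling, 9 without the first DKO replicate of both cell types and 0 to 1 without 1 replicate. In DKO it gave 2, and 1 with the block, 1 with the 2 groups alone, 7 without that replicate of both cell types and 1 to 7 without 1 replicate. Interactions numbered 0 in each tissue, and 1 in each with DESeq2, 2 in spleen and pLNs without that replicate of both cell types, and 0 to 4 there and 0 to 2 in mLNs without 1 replicate. The replicate block lost *Ldhb* in WT (adjusted p = 0.0624) and *Slc2a3* in DKO (adjusted p = 0.0524) of spleen and pLNs, where only 2 pairs exist, added *Tpi1* in WT mLNs and *Eno3* and *Slc16a3* in DKO against WT mLN CD4+Foxp3- cells, and changed no other call. Unless an alternative's own construction (fewer samples, another scale, no minimum) shows it, the cause was not tested. A library left out of a group of 2 leaves 1, which is then assumed to vary like the other groups. Genes under 10 CPM rest on few reads.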
